A study of Comephorus dybowskii and Comephorus baikalensis and Batrachocottus nikolskii with 4 samples.

Results

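The muscle transcriptomes of the 2 golomyankas of Lake Baikal, *Comephorus dybowski* and *Comephorus baicalensis*, were set against each other over all identifiers whose read estimates were listed for both species. This gave 9787 identifiers, each standing for a de novo assembled gene-level transcript cluster. To these were added the identifiers of the normalized tables, 646 of them among the 9787 and 146 not, and 657 of these carry at least 1 protein title in the study's annotation table, as read here in part. Together they made 9933 of the 15243 identifiers found in any file of the series, measured in 2 of its 4 samples.

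Each sample was an RNA pool from the skeletal muscle of wild-caught adult fish with no treatment, given as 15 individuals in the labels, whereas the methods describe larger pools. The pelagic libraries came from *C. dybowski* and *C. baicalensis*, and the benthic libraries of the series, used here only beside them, came from *Batrachocottus nikolskii* and *Batrachocottus multiradiatus*. With 1 library per species there was no replicate, so species, pool and library cannot be told apart and no difference between the species was tested. The intervals printed below are 95% exact binomial intervals of a ratio of reads, and they cover counting error only, since reads copied by PCR without molecular identifiers are not independent molecules.

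Golomyankas are scaleless, live-bearing sculpins of the open water that have no swim bladder. *C. baicalensis* is known for the large amount of lipid in its body, and *C. dybowski* is the smaller and less oily of the pair. In fast vertebrate muscle, calcium released from the sarcoplasmic reticulum binds troponin C on the thin filament, myosin then pulls on actin, and parvalbumin in the cytosol takes up calcium so that the fibre can relax. Creatine kinase refills ATP during such bursts, whereas mitochondria oxidize fatty acids and carbohydrate for sustained work.

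The libraries held 55994846 read estimates in *C. dybowski* and 55089540 in *C. baicalensis*. Scaled to a common total, as CPM, the lowest listed estimates of 58 and 57 reads came to 1.04 and 1.03 CPM, so the tables list only identifiers present in both species. In the normalized tables, where 0 can occur, *C. dybowski* had 10 identifiers at 0 and *C. baicalensis* 8, and a count of 0 allowed up to 0.0540 and 0.0567 CPM. The 10 most abundant identifiers of each library, 7 of them shared, took 48.2% of the *C. dybowski* reads and 51.8% of the *C. baicalensis* reads. The defining markers of fast skeletal muscle were present in both libraries, where their 37 identifiers summed to 204370 CPM in *C. dybowski* and 195252 CPM in *C. baicalensis*. Markers of other cell types were present too, with sums of 165 CPM in *C. dybowski* and 144 CPM in *C. baicalensis* for 8 immune cell identifiers and 252 and 632 CPM for 10 epidermal ones. The 9 identifiers of slow or cardiac muscle summed to 35737 CPM in *C. dybowski* and 56253 CPM in *C. baicalensis*. Most of this lay on DN60_c0_g2, titled both cardiac and skeletal alpha actin. Nerve markers summed to 4694 and 21638 CPM, nearly all on DN7_c0_g2, also titled myosin regulatory light chain 2. Such sums are shares of reads and not per length. Here and below, fewer cells of a type and less RNA per cell cannot be told apart in such bulk RNA.

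Most identifiers listed for both golomyankas were found at similar levels, with large differences among a minority that included very abundant ones. Identifiers below about 1 CPM in either library are not listed, so transcripts nearly absent from 1 species are left out of the shares that follow. Of the 9787 identifiers, 7529 (76.9%) lay within 2-fold of each other, and the median size of the difference was 1.42-fold. At least 4-fold differences were found for 369 identifiers (3.77%) higher in *C. dybowski* and 289 (2.95%) higher in *C. baicalensis*, 6.72% in all. Beyond 16-fold there were 50 and 47 identifiers, and beyond 64-fold 17 and 14. The direction of this split depended on the scaling. With TMM factors 294 identifiers were at least 4-fold higher in *C. dybowski* and 331 higher in *C. baicalensis*, and the median log2 ratio of all identifiers, 0.15 after scaling by the library total, became -0.02.

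Counting error was small beside the largest differences, but not beside the median one. The interval excluded equal CPM for 6853 identifiers (70.0%). Over the 9787 identifiers the median ratio between the upper and the lower limit of an interval was 1.52, and the widest was 2.15. The interval lay wholly past 4-fold for 265 identifiers higher in *C. dybowski* and 227 higher in *C. baicalensis*. The Pearson correlation of log2 CPM over the 9787 identifiers was 0.860 and the Spearman correlation 0.778. These correlations describe identifiers of 1 library per species, and identifiers are not independent replicates.

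**Figure D1:**
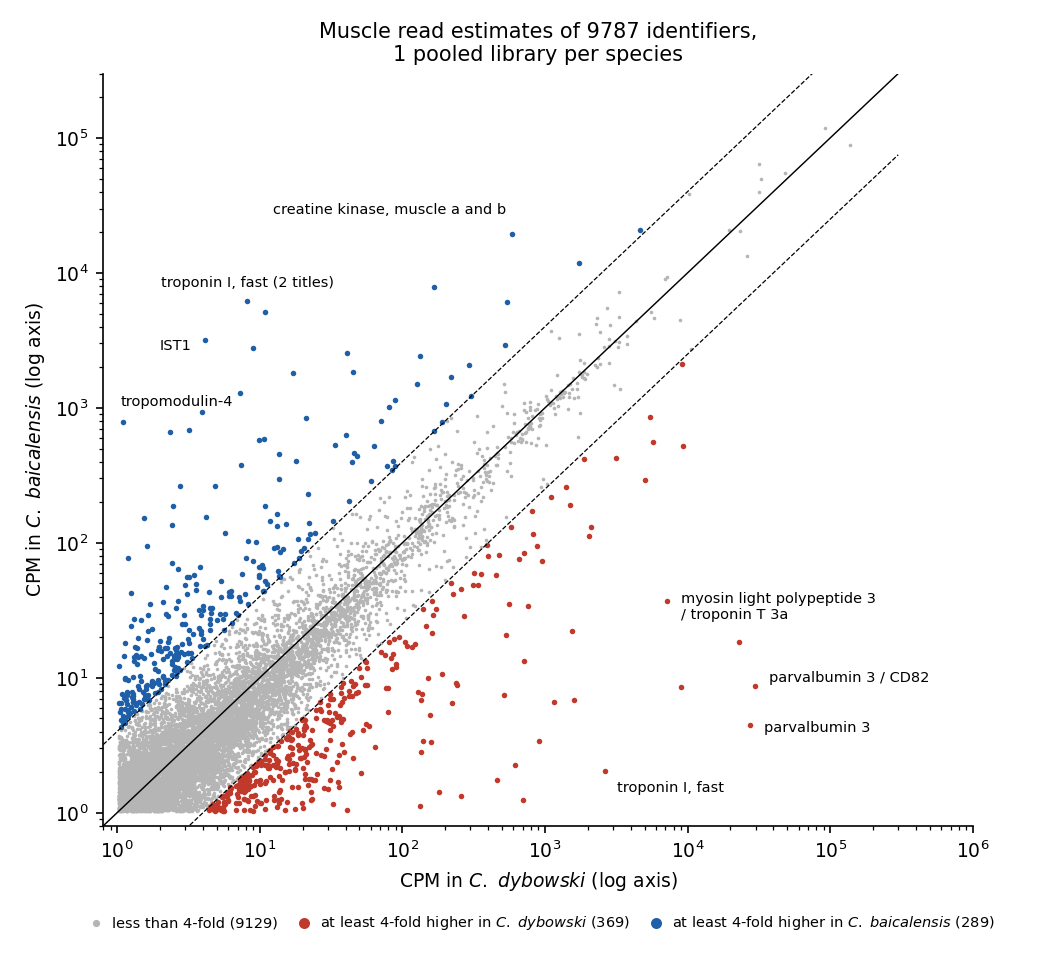
Read abundance (CPM, log axes) of the 9787 identifiers listed for both species, *C. dybowski* on the horizontal and *C. baicalensis* on the vertical axis, 1 point per identifier. The solid line marks equal CPM and the dashed lines 4-fold; 369 red points lie at least 4-fold higher in *C. dybowski* and 289 blue points at least 4-fold higher in *C. baicalensis*.

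Among the listed identifiers, abundant ones were at least 4-fold apart more often than rare ones. Between 3 and 10 mean CPM, 8.35% of the identifiers were at least 4-fold apart, between 100 and 1000 CPM 19.9%, and above 1000 CPM 23.9%, or 28 of 117. Of these 28, 15 were higher in *C. dybowski* and 13 higher in *C. baicalensis*. The lowest class is bounded by the limit of about 1 CPM for listing, so a 4-fold difference can hardly occur below a mean of 3 CPM, where the share was 0.296%. In the other classes, too, this limit caps the difference a listed identifier can show, more strongly at lower means. How much of the rise with abundance comes from the limit was not tested. In the benthic pair, whose tables list 10189 identifiers, 13.2% were at least 4-fold apart, and the share was lower above 1000 CPM (17.9%) than between 30 and 100 CPM (27.4%). Over the 4755 identifiers listed in both genera, 8.10% differed 4-fold between the golomyankas and 14.6% between the benthic species, and 79 did so in both pairs (20.5% of the pelagic and 11.4% of the benthic set).

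**Figure D2:**
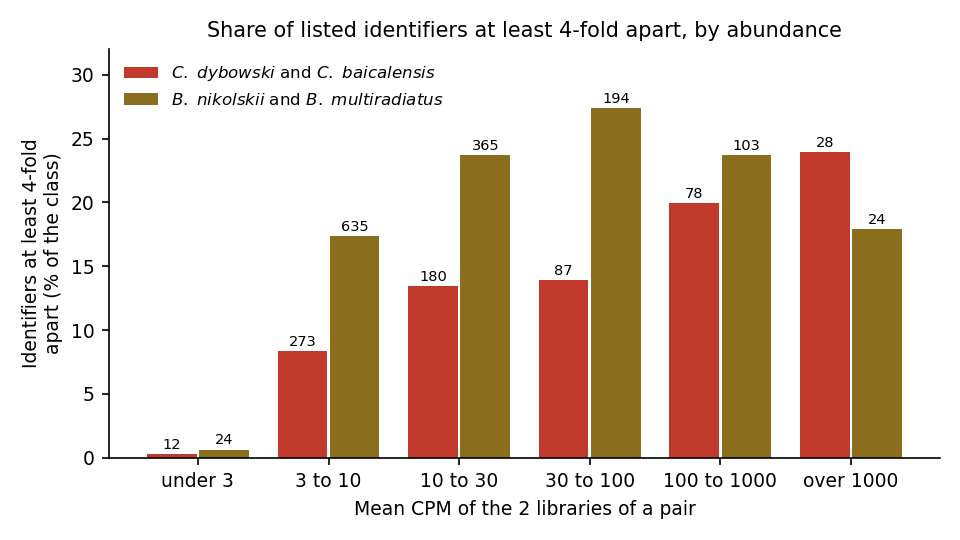
Share of listed identifiers at least 4-fold apart (percent of the class, from 0) in 6 classes of mean CPM, for the pelagic pair (red) and the benthic pair (brown); numbers above the bars are identifiers. The pelagic share is highest above 1000 CPM, 23.9%, and the benthic share between 30 and 100 CPM, 27.4%.

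A few identifiers carried most of the reads behind these differences. Identifiers at least 4-fold higher in *C. dybowski* held 17.7% of its reads, against 0.913% of the reads of *C. baicalensis*. Those at least 4-fold higher in *C. baicalensis* held 1.21% of the reads of *C. dybowski* and 12.8% of its own. The 5 most abundant of the first set alone held 9.85% of the *C. dybowski* library. They were DN832_c0_g2 and DN832_c0_g1, both titled parvalbumin 3, the untitled DN383_c0_g4, DN123_c0_g2 (myosin light polypeptide 3, with troponin T and nucleoside diphosphate kinase among its other titles) and DN53_c0_g1 (tropomyosin alpha-1 among its titles). In *C. baicalensis* the 5 most abundant of the second set held 6.61% of its library: DN7_c0_g2 (myosin regulatory light chain 2), DN5_c0_g1 (creatine kinase, muscle a and b), DN4_c0_g1 (ATP synthase subunit alpha and parvalbumin beta), DN267_c0_g1 (troponin C and reticulon-4) and DN55_c0_g3 (troponin I, fast skeletal muscle).

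The titled proteins are described below on the CPM of the normalized tables, and a difference is log2(CPM + 1) in *C. dybowski* minus *C. baicalensis*, which understates the difference of low identifiers. Of their identifiers, 98 (12.4%) were at least 4-fold higher in *C. dybowski* and 112 (14.1%) higher in *C. baicalensis*, 26.5% in all, with a median difference of -0.03. The study had chosen the identifiers of these tables because they differed between some pair of its species, these 2 included, so this share is the background for the protein lists and not a result. In the benthic pair 239 (30.2%) of them were at least 4-fold apart. At the 4-fold limit itself, 24 identifiers had differences between 1.9 and 2.1 in size.

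Protein titles and identifiers did not map 1 to 1. Only 321 identifiers carried 1 title, 336 carried several titles and 135 carried none, and the shares at least 4-fold apart were 29.0%, 23.5% and 28.1%. An identifier with several titles counts in the list of each of them, and not all of its titles are named here. Conversely, 173 of the 876 titles lay on more than 1 identifier, so that the reads of 1 protein can be spread over several. Titles were the best matches of each transcript, in 1155 of 1325 cases to the flathead grey mullet *Mugil cephalus*. For these reasons the sum over all identifiers of a title is also given for many of the proteins below. Reads of an identifier with more than 1 title enter every sum it belongs to. For some sums that 1 such identifier decides, the value without it is given, a choice made after the data were seen.

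Among the thin filament proteins, troponin identifiers differed strongly in both directions. Of 17 troponin identifiers, 5 were at least 4-fold higher in *C. dybowski* and 3 higher in *C. baicalensis*, 47.1% against 26.5% of the normalized tables, and the median difference was -0.23. Troponin I, the inhibitory subunit that holds the filament off at low calcium, showed an exchange of identifiers under 1 title. DN46_c0_g3, titled troponin I, fast skeletal muscle, had 2669 CPM in *C. dybowski* and 2.12 CPM in *C. baicalensis*, 1259.5-fold higher (1047 to 1531). DN55_c0_g3, with the same title and that of an aldehyde dehydrogenase, had 8.24 CPM in *C. dybowski* against 6491 CPM in *C. baicalensis*, where it was 788-fold higher (719 to 865). Another one, DN640_c0_g3, had 3.95 CPM in *C. dybowski* and 976 CPM in *C. baicalensis*, beside 2431 CPM in *B. nikolskii* and 2685 CPM in *B. multiradiatus*. Each golomyanka thus had at least 1 abundant fast troponin I identifier, but not the same one. Summed over the title, troponin I was at 2681 CPM in *C. dybowski* and 7469 CPM in *C. baicalensis*, a difference of -1.48. This direction rested on DN55_c0_g3, since the 2 identifiers with no other title summed to 2673 CPM in *C. dybowski* and 978 CPM in *C. baicalensis*, 2.73-fold higher in *C. dybowski*.

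Troponin C, the calcium sensor of the filament, shared its most abundant identifier between the species. DN537_c0_g4 stood at 7274 CPM in *C. dybowski* and 9738 CPM in *C. baicalensis*, 1.34-fold higher in *C. baicalensis*. DN267_c0_g1, titled troponin C, reticulon-4 and nudC, had 169 CPM in *C. dybowski* and 8185 CPM in *C. baicalensis*. DN191_c0_g5 was found at 23.1 CPM in *C. dybowski* and at 0 in *C. baicalensis*, at least 407-fold higher in *C. dybowski*, whereas it had 2852 CPM in *B. nikolskii* and 81.3 CPM in *B. multiradiatus*. The sum over the title was 7468 CPM in *C. dybowski* and 17926 CPM in *C. baicalensis* (-1.26), and without DN267_c0_g1 it was 7299.6 CPM in *C. dybowski* and 9741 CPM in *C. baicalensis* (-0.42).

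Troponin T ties the complex to tropomyosin, and the sum of its fast type 3a was higher in *C. dybowski*. The unmixed identifier DN462_c0_g4 (troponin T type 3a) had 8969 CPM in *C. dybowski* and 4700.3 CPM in *C. baicalensis*, 1.91-fold. DN123_c0_g1, titled both troponin T type 3a and myosin light polypeptide 3, had 7237 CPM in *C. dybowski* against 38.9 CPM in *C. baicalensis*, 186-fold higher (178 to 194), beside 5588 and 8494 CPM in the benthic *B. nikolskii* and *B. multiradiatus*. The title summed to 25628 CPM in *C. dybowski* and 5284 CPM in *C. baicalensis*, a difference of 2.28, of which the 2 identifiers shared with myosin light polypeptide 3 made up the larger part in *C. dybowski*. A second title, troponin T, fast skeletal muscle isoforms, went the other way with 125 CPM in *C. dybowski* and 465 CPM in *C. baicalensis*.

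Tropomodulin-4 and tropomyosin 4a stood apart in *C. baicalensis*. Tropomodulin-4 caps the pointed end of the actin filament in skeletal muscle. Its identifier DN3070_c1_g2 had 1.12 CPM in *C. dybowski* and 816 CPM in *C. baicalensis*, 730.0-fold higher in *C. baicalensis* (571 to 955), with 1.34 and 0.867 CPM in the benthic *B. nikolskii* and *B. multiradiatus*. DN3070_c1_g1 of the same title followed in the same direction with 1.33 CPM in *C. dybowski* and 28.6 CPM in *C. baicalensis*, and the sums over the title were 2.84 and 846 CPM. Tropomyosin 4a (DN9_c2_g1), a member of the coiled-coil family that lies along actin, had 7.37 CPM in *C. dybowski* and 1337 CPM in *C. baicalensis*, and was near 0 in both benthic libraries. In the opposite direction, DN53_c0_g1, which holds tropomyosin alpha-1 beside 3 other titles, had 9203 CPM in *C. dybowski* and 2219.5 CPM in *C. baicalensis*, 4.15-fold.

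Actin differed far less in its main identifier. DN60_c0_g2, titled alpha cardiac and alpha skeletal actin, had 32914 CPM in *C. dybowski* and 52062 CPM in *C. baicalensis*, 1.58-fold higher in *C. baicalensis*. A cardiac actin identifier with 1 title, DN134_c0_g2, had 45.8 CPM in *C. dybowski* and 1929 CPM in *C. baicalensis* (42.1-fold, 40.5 to 43.8). DN68_c0_g2, titled skeletal alpha actin, had 893 CPM in *C. dybowski* and 98.4 CPM in *C. baicalensis*. With DN60_c0_g2 included, the titles summed to 33371 CPM in *C. dybowski* and 54141 CPM in *C. baicalensis* for cardiac alpha actin and to 34198 and 52269 CPM for skeletal alpha actin. The direction for skeletal alpha actin rested on DN60_c0_g2, which also carries titles of proteins other than actin. DN68_c0_g2 and DN253_c1_g2 (391 CPM in *C. dybowski* and 109 CPM in *C. baicalensis*) of that title were higher in *C. dybowski*. DN134_c0_g2 and DN68_c0_g2 were the only 2 of 11 actin identifiers at least 4-fold apart (18.2%, against 26.5% of the normalized tables). The list summed to 37530.1 CPM in *C. dybowski* and 56648 CPM in *C. baicalensis*, and without DN60_c0_g2 to 4616 and 4586 CPM.

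In the thick filament, myosin light chains accounted for most of the large differences. The list of myosin heavy and light chains held 20 identifiers, 4 of them at least 4-fold higher in *C. dybowski* and 4 higher in *C. baicalensis*, with a median of -0.30. Together these were 40% of the list, against 26.5% of the normalized tables. Titled identifiers of myosin light chain 1, an essential light chain of fast fibres, were abundant only in *C. dybowski* of the pelagic pair. The unmixed identifier DN1129_c0_g4 of this protein had 1567 CPM in *C. dybowski* and 23.3 CPM in *C. baicalensis* (67.4-fold, 63.6 to 71.3). DN14_c2_g1 of the same title, which also carries that of a transcription factor, had 704 CPM in *C. dybowski* against 1.31 CPM in *C. baicalensis*. The title summed to 2272 and 24.8 CPM, a difference of 6.46.

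The other light chains differed in both directions. Myosin light polypeptide 3 was led by DN117_c0_g2, also titled transcription factor BTF3 homolog 4. It had 10387 CPM in *C. dybowski* and 40235 CPM in *C. baicalensis*, 3.87-fold higher in *C. baicalensis*. DN123_c0_g1 and DN123_c0_g2 went the opposite way, the second with 9422 CPM in *C. dybowski* and 545 CPM in *C. baicalensis*. The sum of the title was 27078 CPM in *C. dybowski* and 40877 CPM in *C. baicalensis* (-0.59). The direction of this sum rested on the mixed identifier DN117_c0_g2. For the regulatory light chain 2, which tunes cross-bridge force, DN38_c1_g1, also titled calpain-7, had 26108 CPM in *C. dybowski* and 13899 CPM in *C. baicalensis*. DN7_c0_g2, also titled peripheral myelin protein 22b, stood at 4693 CPM in *C. dybowski* and 21637 CPM in *C. baicalensis*. The light chain title summed to 31395 CPM in *C. dybowski* and 55746 CPM in *C. baicalensis*. That sum includes DN5_c0_g1, which also carries both creatine kinase titles, and without it the sum was 30801 CPM in *C. dybowski* and 35536 CPM in *C. baicalensis* (-0.21).

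Of the proteins that order the sarcomere, desmin and a LIM protein differed most. In the list of 24 Z-disc, costamere and intermediate filament identifiers 4 were at least 4-fold higher in *C. dybowski* and 2 higher in *C. baicalensis*, and 14 lay within 2-fold. Past 4-fold were thus 25%, against 26.5% of the normalized tables. Desmin a (DN2389_c0_g1), the intermediate filament that links Z-discs, had 258 CPM in *C. dybowski* and 1.37 CPM in *C. baicalensis*, 188-fold (149 to 239), and both its identifiers summed to 317 and 22.9 CPM. PDZ and LIM domain protein 7 (DN290_c0_g2), a scaffold at the Z-disc, had 89.2 CPM in *C. dybowski* and 1194 CPM in *C. baicalensis*. Its second identifier DN290_c0_g1 differed little, with 713 CPM in *C. dybowski* and 1005 CPM in *C. baicalensis*, so that the title summed to 802 CPM in *C. dybowski* and 2199.7 CPM in *C. baicalensis*, and alpha-actinin-3b (DN6966_c0_g4) had 788 and 1004 CPM. Titin, myomesin and the myosin-binding proteins had 2 and 1 identifiers at least 4-fold apart among 17 (17.6%).

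The largest differences of all titled identifiers were in parvalbumin, and 5 of 6 parvalbumin identifiers were at least 4-fold apart (83.3%, against 26.5% of the normalized tables). DN832_c0_g1, titled parvalbumin 3 alone, had 27614.5 CPM in *C. dybowski* and 4.64 CPM in *C. baicalensis*, 5953-fold higher (5259 to 6783). DN832_c0_g2, which also carries the title CD82 antigen, had 29804 CPM in *C. dybowski* and 9.02 CPM in *C. baicalensis*, 3304-fold (3021 to 3622). Neither was above 0.217 CPM in a benthic library. The only other identifier of that title, DN1094_c0_g1, had 5.38 CPM in *C. dybowski* and 54.5 CPM in *C. baicalensis*, beside 9512 CPM in *B. nikolskii* and 17714 CPM in *B. multiradiatus*. No abundant parvalbumin 3 identifier was therefore found in *C. baicalensis* among the titled ones, and the title summed to 57424 CPM in *C. dybowski* and 68.2 CPM in *C. baicalensis*.

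Identifiers titled parvalbumin beta were abundant in both golomyankas, but the most abundant ones also carried other titles. DN383_c0_g2, also titled macrophage migration inhibitory factor, had 23337 CPM in *C. dybowski* and 21170.4 CPM in *C. baicalensis*, a difference of 0.14. DN1094_c0_g4, titled parvalbumin beta alone, had 465 CPM in *C. dybowski* and 1.83 CPM in *C. baicalensis*, and was the most abundant identifier of this title in the benthic species, with 41610.3 CPM in *B. nikolskii* and 55408 CPM in *B. multiradiatus*. DN4_c0_g1 had 1757 CPM in *C. dybowski* and 12303 CPM in *C. baicalensis*, but its reads are shared with the title ATP synthase subunit alpha. Over all 6 parvalbumin identifiers the sum was 82983 CPM in *C. dybowski* and 33543 CPM in *C. baicalensis*.

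Proteins of the calcium store differed in both directions, with 4 of 17 identifiers past 4-fold, 23.5% against 26.5% of the normalized tables. The calcium pump of the sarcoplasmic reticulum, SERCA1, had 2434 CPM in *C. dybowski* and 3819 CPM in *C. baicalensis* on DN279_c0_g1, and 1044 and 284 CPM on DN585_c0_g2, so that the title summed to 3478 and 4103 CPM. DN279_c0_g1 is also titled as a sodium channel beta subunit and DN585_c0_g2 as taxilin beta b. Calsequestrin-1b, which buffers calcium inside the store, differed by 0.11 on DN994_c0_g2, also titled L9, with 1557 CPM in *C. dybowski* and 1437 CPM in *C. baicalensis*. Calsequestrin-1a stood at 162 CPM in *C. dybowski* and 433 CPM in *C. baicalensis* over its 2 identifiers. Sarcalumenin, a calcium-binding glycoprotein of the same store, had 2.104 CPM in *C. dybowski* and 38.2 CPM in *C. baicalensis* on DN1900_c0_g2, a creatine kinase identifier as well, and its title summed to 296 CPM in *C. dybowski* and 391 CPM in *C. baicalensis*. The gamma-6 subunit of the voltage-dependent calcium channel had 26.96 CPM in *C. dybowski* and 0.0740 CPM in *C. baicalensis* on DN180_c0_g2. With its main identifier DN388_c0_g1 (740 and 579 CPM) the title summed to 931 CPM in *C. dybowski* and 609 CPM in *C. baicalensis*. The list as a whole summed to 7498 CPM in *C. dybowski* and 7726 CPM in *C. baicalensis*.

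**Figure D3:**
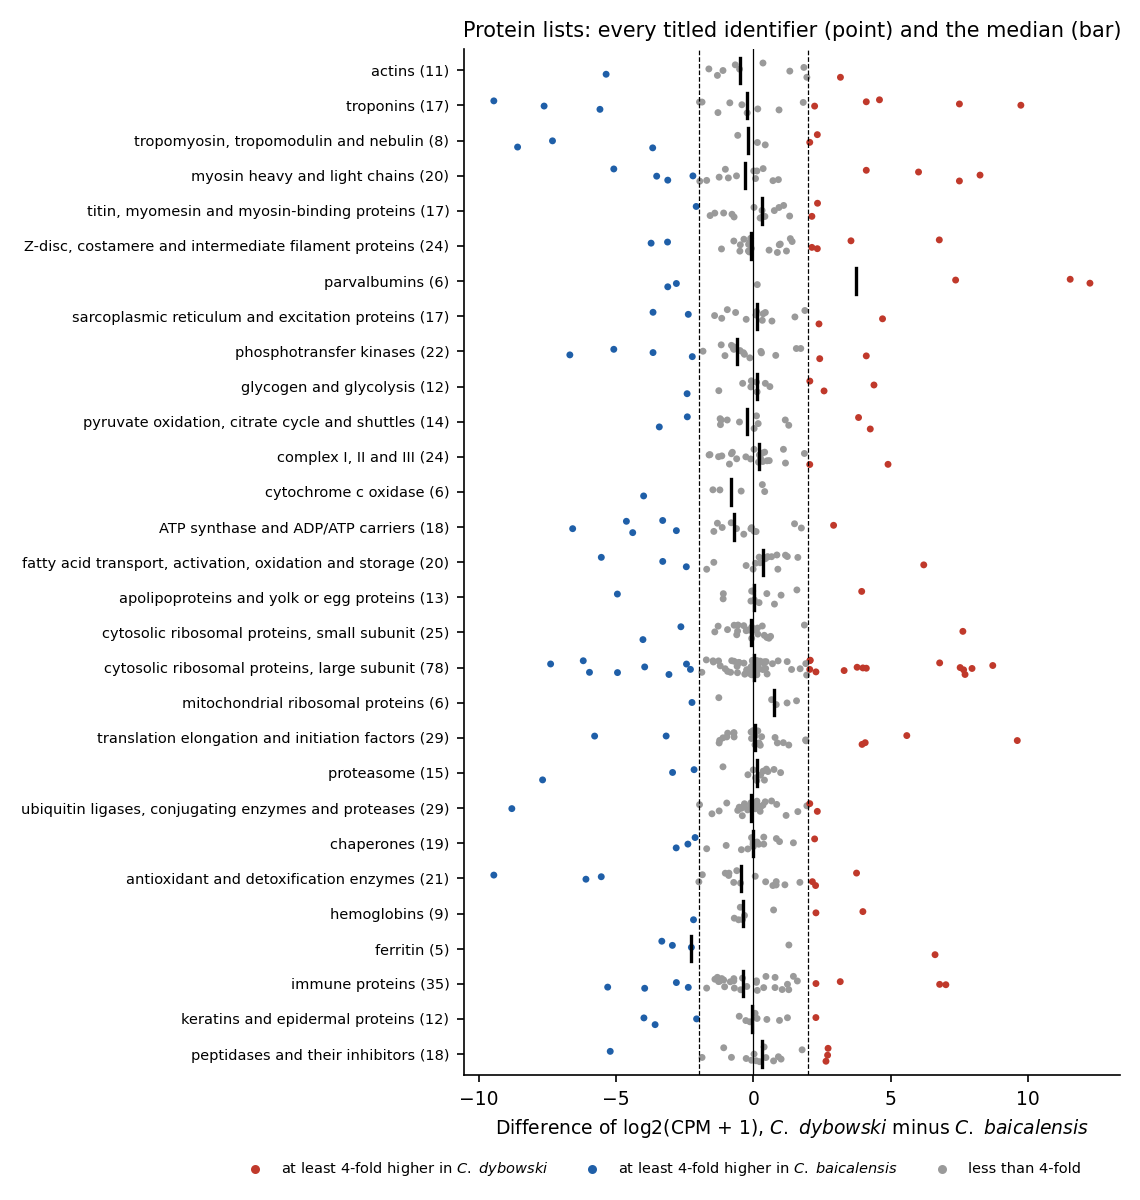
Difference of log2(CPM + 1), *C. dybowski* minus *C. baicalensis*, of every titled identifier (points) in 29 protein lists, with the list median (black bar) and the number of identifiers in parentheses. Dashed lines mark 4-fold; medians lie close to 0 in most lists, 3.75 in parvalbumins and -2.26 in ferritin.

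Creatine kinase was the phosphotransfer enzyme with the largest difference in reads. DN5_c0_g1, titled creatine kinase, muscle a and b and also myosin regulatory light chain 2, had 594 CPM in *C. dybowski* and 20209 CPM in *C. baicalensis*, 34.04-fold higher in *C. baicalensis* (33.7 to 34.4), beside 15911 CPM in *B. nikolskii* and 31039.5 CPM in *B. multiradiatus*. Summed over their titles, creatine kinase a had 9895 CPM in *C. dybowski* and 32806 CPM in *C. baicalensis*, and creatine kinase b 8954 and 30081 CPM. These sums share the mixed identifiers, DN5_c0_g1 among them, and are not separate results. The 2 identifiers titled creatine kinase b alone summed to 2398 CPM in *C. dybowski* and 4841 CPM in *C. baicalensis*, 2.02-fold higher in *C. baicalensis*. Nucleoside diphosphate kinase A 2, which passes phosphate between nucleotides, took similar shares of both libraries, at 41721 CPM in *C. dybowski* and 43995 CPM in *C. baicalensis*. Within it DN679_c0_g1 had 17.2 CPM in *C. dybowski* and 1873 CPM in *C. baicalensis*. Adenylate kinase 1 likewise had a 4-fold identifier, DN16366_c0_g2 with 259 and 47.7 CPM, under a title whose sums were 2068 CPM in *C. dybowski* and 2137 CPM in *C. baicalensis*. The list of 22 phosphotransfer kinases had a median of -0.60, with 2 identifiers at least 4-fold higher in *C. dybowski* and 4 higher in *C. baicalensis*. These made up 27.3% of the list, against 26.5% of the normalized tables.

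Glycogen and glycolytic identifiers were few, 12 in the list, of which 1 carried no other title. The most abundant ones of glyceraldehyde-3-phosphate dehydrogenase and pyruvate kinase differed little. Glyceraldehyde-3-phosphate dehydrogenase (DN1540_c0_g1) had 630.4 CPM in *C. dybowski* and 673 CPM in *C. baicalensis*, and pyruvate kinase (DN37_c0_g1) 378 and 399 CPM. The muscle glycogen synthase title lies on DN202_c0_g2 together with that of WAS/WASL-interacting protein family member 2, with 764 CPM in *C. dybowski* and 35.5 CPM in *C. baicalensis* (21.5-fold, 20.6 to 22.6), whereas all identifiers of the WAS/WASL title summed to 4443 CPM in *C. dybowski* and 3927 CPM in *C. baicalensis*. Muscle glycogen phosphorylase releases glucose from glycogen. Its identifier DN170_c1_g1 had 0.134 CPM in *C. dybowski* and 5.05 CPM in *C. baicalensis*, against 241 CPM in *B. nikolskii* and 141 CPM in *B. multiradiatus*. The titles cover only the normalized tables, so further identifiers of these enzymes may lie among the untitled ones.

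In the citrate cycle and its feeding steps, 7 of 14 identifiers were higher in each species, and 2 passed 4-fold in each direction. That made 28.6% past 4-fold, against 26.5% of the normalized tables. Mitochondrial malate dehydrogenase (DN1530_c0_g1) had 130.4 CPM in *C. dybowski* and 8.24 CPM in *C. baicalensis* (15.8-fold), and the alpha subunit of isocitrate dehydrogenase (DN4851_c0_g1) 25.6 and 0.390 CPM. Mitochondrial glycerol-3-phosphate dehydrogenase, part of a shuttle for cytosolic NADH, was higher in *C. baicalensis* on DN2085_c0_g1, with 3.12 CPM in *C. dybowski* and 43.4 CPM in *C. baicalensis*. The beta subunit of pyruvate dehydrogenase (DN24278_c0_g1), the entry to the cycle, had 3.80 CPM in *C. dybowski* and 24.5 CPM in *C. baicalensis*.

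ATP synthase subunits held some of the largest differences of the respiratory chain, most of them toward *C. baicalensis*. Of 18 identifiers of ATP synthase and the ADP/ATP carriers, 5 were higher in *C. dybowski* and 13 higher in *C. baicalensis*, against 48.7% and 51.1% of the normalized tables. Past 4-fold were 1 and 5, 33.3% in all against 26.5% of the normalized tables. Of the 6 identifiers with 1 title, 1 passed 4-fold in each direction, and the 6 summed to 511 CPM in *C. dybowski* and 321 CPM in *C. baicalensis*. ATP synthase F(0) subunit B1, in the stalk of the enzyme, had 0.595 CPM in *C. dybowski* and 152 CPM in *C. baicalensis* on DN19139_c0_g1 (256-fold, 182 to 373), and its 3 identifiers summed to 3.34 and 202 CPM. Subunit C1 of the rotating ring summed to 14.1 CPM in *C. dybowski* and 311 CPM in *C. baicalensis*. Nearly all of this lay on DN8182_c0_g1, also titled leucine-rich PPR motif-containing protein. The C1 identifier with no other title, DN18905_c0_g1, had 0.339 CPM in *C. dybowski* and 0.314 CPM in *C. baicalensis*. Subunit g went the opposite way, with 459 CPM in *C. dybowski* and 59.8 CPM in *C. baicalensis* on DN88_c1_g5. Subunit d and ADP/ATP translocase 1 differed by less than 0.2 in size, the translocase (DN98_c0_g1) with 611 CPM in *C. dybowski* and 571 CPM in *C. baicalensis*. The sum of the whole list, 3394 CPM in *C. dybowski* and 14195 CPM in *C. baicalensis*, came mostly from the mixed identifier DN4_c0_g1 described with parvalbumin beta.

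Of 24 identifiers of complexes I, II and III, 14 were higher in *C. dybowski* and 10 higher in *C. baicalensis*. Past 4-fold on log2(CPM + 1) were 2 (8.33%, against 26.5% of the normalized tables), both in *C. dybowski*. NDUFB8, an accessory subunit of complex I, had 54.9 CPM in *C. dybowski* and 0.870 CPM in *C. baicalensis* on DN3002_c0_g1 (63.1-fold, 47.2 to 86.4). The other was the mixed identifier DN53_c0_g1 already given under tropomyosin. The direction of this count depends on the 1 CPM added. On plain CPM, low identifiers were also more than 4-fold higher in *C. baicalensis*. Examples are DN607_c0_g4 (0.187 CPM in *C. dybowski* and 1.18 CPM in *C. baicalensis*) and DN1520_c3_g2 (0.311 and 1.91 CPM). NDUFA6 (DN19_c0_g2) was lower in *C. dybowski*, at 518 CPM against 1554 CPM in *C. baicalensis*. In cytochrome c oxidase, the enzyme that passes electrons to oxygen, subunit 5B (DN1628_c0_g2) had 40.3 CPM in *C. dybowski* and 659.6 CPM in *C. baicalensis*, 16.4-fold higher in *C. baicalensis* (15.7 to 17.1). Subunit 6A (DN476_c0_g1) had 369 CPM in *C. dybowski* and 294 CPM in *C. baicalensis*, and NDUFA4L (DN4524_c0_g1) 14.4 and 41.7 CPM.

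A fatty acid ligase and a thiolase were moderately higher in *C. dybowski*, and 2 proteins of lipid storage were higher in *C. baicalensis*. In the list of 20 identifiers for fatty acid transport, activation, oxidation and storage, 13 were higher in *C. dybowski* and 7 higher in *C. baicalensis*, with a median of 0.34, and past 4-fold there were 1 and 3. That was 20% past 4-fold, against 26.5% of the normalized tables. The acyl-CoA ligase ACSBG2, which activates long-chain fatty acids, had 3405 CPM in *C. dybowski* and 1448 CPM in *C. baicalensis* on DN1041_c0_g1 (2.35-fold, 2.33 to 2.37). This identifier is also titled mitochondrial lipoyl synthase. The last enzyme of beta-oxidation, 3-ketoacyl-CoA thiolase (DN1338_c0_g1), had 1779 CPM in *C. dybowski* and 959.7 CPM in *C. baicalensis*, 1.85-fold. Cytoplasmic acetyl-CoA synthetase, titled together with an exosome subunit on DN2180_c0_g1, had 182 CPM in *C. dybowski* and 1.49 CPM in *C. baicalensis* (123-fold, 98.9 to 156).

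Perilipin-2 coats lipid droplets and G0S2 inhibits the lipase that empties them. Perilipin-2 (DN497_c0_g2) had 2.21 CPM in *C. dybowski* and 30.8 CPM in *C. baicalensis*, 13.9-fold higher in *C. baicalensis* (11.6 to 16.8), and G0S2 (DN5205_c0_g2) had 0.845 and 9.05 CPM (10.7-fold, 7.93 to 14.8). These 2 titles are also the only adipocyte markers of the list used here, and they were not above the benthic levels as a pair, since G0S2 had 233 CPM in *B. nikolskii* and 42.6 CPM in *B. multiradiatus*. Whether they come from muscle fibres or from fat cells in the sample was not tested. The heart-type fatty acid-binding protein, which ferries fatty acids in the cytosol, had 335 CPM in *C. dybowski* and 914 CPM in *C. baicalensis* on DN1992_c0_g1, which carries 2 further titles. Sterol carrier protein 2 shares DN32_c0_g1 with 2 more titles and had 7.48 and 394 CPM.

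Apolipoprotein Eb, a carrier of lipid in plasma, was found on different identifiers in the 2 species. DN1401_c0_g1 had 32.9 CPM in *C. dybowski* and 1.21 CPM in *C. baicalensis*, whereas DN45_c1_g1 had 4.23 CPM in *C. dybowski* and 161 CPM in *C. baicalensis*. Over the title the sums were 37.2 CPM in *C. dybowski* and 163 CPM in *C. baicalensis* (-2.10). Markers of liver, yolk and egg together reached 52.6 CPM in *C. dybowski* and 96.9 CPM in *C. baicalensis* over 6 identifiers.

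Ribosomal proteins of the cytosol were the largest list, and their median difference was near 0. Of 78 large subunit identifiers 44 lay within 2-fold, 14 were at least 4-fold higher in *C. dybowski* and 8 higher in *C. baicalensis*, and the median was 0.01. Past 4-fold were 28.2% of them, against 26.5% of the normalized tables. Of 25 small subunit identifiers 19 lay within 2-fold and 3 (12%) passed 4-fold. Several large differences were of 1 identifier under a protein name that had others. S3 had 1613 CPM in *C. dybowski* and 7.16 CPM in *C. baicalensis* on DN5704_c0_g3 (225-fold, 204 to 250.3). P0, the base of the stalk that recruits elongation factors, had 823 CPM in *C. dybowski* and 0.957 CPM in *C. baicalensis* on DN5989_c0_g2. In the opposite direction L21 (DN6974_c0_g1) had 1.57 CPM in *C. dybowski* and 160.3 CPM in *C. baicalensis*, and L7 (DN61_c1_g1) 2.76 and 275 CPM. By title, the differences of L21 and L7 were small, with sums of 1001 CPM in *C. dybowski* and 1013 CPM in *C. baicalensis* for L21 and of 231 and 346 CPM for L7. Those of S3 and P0 remained, with 1614 CPM in *C. dybowski* and 8.86 CPM in *C. baicalensis* for S3 and 823 and 1.76 CPM for P0. For L5, both identifiers with 1 title were at least 4-fold higher in *C. dybowski*, with sums of 306 CPM in *C. dybowski* and 0.691 CPM in *C. baicalensis*. Over identifiers with 1 title, L13 summed to 5802 CPM in *C. dybowski* and 646 CPM in *C. baicalensis*. The titles cover only the normalized tables, so further identifiers of S3, P0, L5 or L13 may lie among the untitled ones.

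Elongation factor 2, which moves the ribosome along the mRNA, was the fourth most different titled identifier higher in *C. dybowski*. DN13109_c0_g1 had 1038 CPM in *C. dybowski* and 0.329 CPM in *C. baicalensis* (3156-fold, 2017 to 5544), beside 20.7 CPM in *B. nikolskii* and 10.9 CPM in *B. multiradiatus*. Over its 3 identifiers the title came to 1465 CPM in *C. dybowski* and 351 CPM in *C. baicalensis*, a difference of 2.06. Elongation factor 1-beta, the exchange factor of elongation factor 1, again sat on different identifiers: DN2588_c0_g1 had 716 CPM in *C. dybowski* and 13.9 CPM in *C. baicalensis*, and DN741_c0_g2 9.98 and 605 CPM. Its title sums were 762 CPM in *C. dybowski* and 691 CPM in *C. baicalensis*. Elongation factor 1-alpha, titled on DN108_c0_g1, differed by 0.06.

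Most identifiers of protein turnover lay within 2-fold, but most of them carried several titles. Of 15 proteasome identifiers 11 lay within 2-fold and the 3 past 4-fold (20%, against 26.5% of the normalized tables) were all higher in *C. baicalensis*. The 4 with 1 title had a median of -1.57, with 2 past 4-fold, and summed to 238 CPM in *C. dybowski* and 850 CPM in *C. baicalensis*. PSMD1, the scaffold of the proteasome base, had 2.38 CPM in *C. dybowski* and 693 CPM in *C. baicalensis* on DN671_c0_g2 (291-fold, 246 to 349). Its other identifier DN1010_c0_g1 had 315 CPM in *C. dybowski* and 227 CPM in *C. baicalensis*, and both summed to 318 and 920.0 CPM. IST1, a regulator of ESCRT-III membrane scission, had the second largest difference toward *C. baicalensis*, with 4.18 CPM in *C. dybowski* and 3332 CPM in *C. baicalensis* on DN880_c0_g2, a title on no other identifier. DN17_c0_g1, titled alpha tubulin and ubiquitin carboxyl-terminal hydrolase 28, had 10.99 CPM in *C. dybowski* and 5349 CPM in *C. baicalensis* (487-fold). Among 29 identifiers of ubiquitin ligases, conjugating enzymes and proteases 20 lay within 2-fold, and only 1 of the 29 carried 1 title.

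Chaperones, as well, had a median near 0 (-0.01 over 19 identifiers). Small heat shock proteins, which hold unfolded proteins in solution, differed from member to member. Heat shock protein beta-9 had on DN8_c0_g1 2.87 CPM in *C. dybowski* and 26.2 CPM in *C. baicalensis*, beside 70.4 CPM in *B. nikolskii* and 528 CPM in *B. multiradiatus*, and its 2 identifiers summed to 25.8 CPM in *C. dybowski* and 72.9 CPM in *C. baicalensis*. Heat shock protein beta-11 (DN267_c0_g2, also titled reticulon-4) stood at 150.2 CPM in *C. dybowski* and 116 CPM in *C. baicalensis*, against 0.239 CPM in *B. nikolskii* and 2.99 CPM in *B. multiradiatus*. Heat shock protein beta-1 (DN399_c0_g3) had 0.142 CPM in *C. dybowski* and 3.98 CPM in *C. baicalensis*, against 114 and 31.8 CPM in *B. nikolskii* and *B. multiradiatus*.

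Of the antioxidant enzymes, mitochondrial peroxiredoxin-5, a peroxide reductase, was higher in *C. baicalensis*, with title sums of 6.51 CPM in *C. dybowski* and 276 CPM in *C. baicalensis*. The glutathione peroxidase that reduces lipid hydroperoxides was carried by DN2579_c0_g1 in *C. dybowski* (153 CPM, against 10.4 CPM in *C. baicalensis*) and by DN4084_c0_g1 in *C. baicalensis* (0.931 CPM in *C. dybowski*, against 132 CPM in *C. baicalensis*). Its sums were 158 CPM in *C. dybowski* and 146 CPM in *C. baicalensis*. DN2579_c0_g1 also carries the title of a rab5 exchange factor, and over the 2 identifiers with no other title the sums were 5.16 CPM in *C. dybowski* and 136 CPM in *C. baicalensis* (-4.47). The list of 21 antioxidant and detoxification identifiers had 3 past 4-fold in each direction, 28.6% in all against 26.5% of the normalized tables.

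Hemoglobins, the oxygen carriers of red blood cells, summed to similar levels, 3382 CPM in *C. dybowski* and 3131 CPM in *C. baicalensis* over 9 identifiers. The 4 of them with 1 title summed to 1694 CPM in *C. dybowski* and 2366 CPM in *C. baicalensis*. The alpha embryonic 5 title (DN49_c1_g1) had 792.1 CPM in *C. dybowski* and 1152 CPM in *C. baicalensis*. DN49_c0_g1, a mixed identifier that includes the embryonic alpha title, had 1111 CPM in *C. dybowski* and 228 CPM in *C. baicalensis* under a title that summed to 2466 and 1760.1 CPM, and DN491_c0_g1, titled beta-2, had 13.5 and 64.9 CPM. The number of red blood cells in each sample is not known. The heavy subunit of ferritin, which stores iron, lay on 5 identifiers. DN1718_c1_g1 had 166 CPM in *C. dybowski* and 0.708 CPM in *C. baicalensis*, while DN990_c1_g1 had 61.2 and 297 CPM and DN347_c1_g1 9.58 and 106 CPM. Although the median of the 5 was -2.26, the title summed to 420.3 CPM in *C. dybowski* and 551 CPM in *C. baicalensis*, a difference of -0.39.

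Of 35 immune identifiers, 4 were past 4-fold in each direction, together 22.9% against 26.5% of the normalized tables. Their median was -0.40. An interferon-inducible 27-like protein was another title on exchanged identifiers. DN868_c0_g1 had 232 CPM in *C. dybowski* and 0.807 CPM in *C. baicalensis*, and DN741_c0_g1 had 21.3 and 882 CPM. Both are mixed, the first also titled high-affinity choline transporter 1, the second also protein phosphatase 1 regulatory subunit 27 and type I iodothyronine deiodinase. The title sums of 253 CPM in *C. dybowski* and 883 CPM in *C. baicalensis* took their direction from DN741_c0_g1. The invariant chain CD74 b, which guides MHC class II molecules, had 45.1 CPM in *C. dybowski* and 4.15 CPM in *C. baicalensis* on DN10061_c0_g2. Its other identifier DN7516_c0_g1 went the other way, with 2.15 CPM in *C. dybowski* and 4.17 CPM in *C. baicalensis*. Of the 8 immune cell markers 4 were higher in each species, with a median of -0.29. Reticulon-4, a protein that shapes the endoplasmic reticulum, had 2111 CPM in *C. dybowski* and 137 CPM in *C. baicalensis* on DN462_c0_g1, against title sums of 2430.1 CPM in *C. dybowski* and 8437 CPM in *C. baicalensis*. The sums include DN267_c0_g1, already counted under troponin C, and without it they were 2261 CPM in *C. dybowski* and 252 CPM in *C. baicalensis* (3.16), the opposite direction.

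Among transcripts of skin, 2 keratins were higher in *C. baicalensis*. Keratin 8 (DN3893_c2_g1) had 13.4 CPM in *C. dybowski* and 171 CPM in *C. baicalensis*, 12.8-fold higher in *C. baicalensis* (11.9 to 13.8), and keratin 94 (DN1888_c0_g2), a fish keratin, 85.4 and 362 CPM. The 10 epidermal markers split evenly, 5 higher in each species, and their sum was 252 CPM in *C. dybowski* and 632 CPM in *C. baicalensis*, below the 9734 CPM of *B. nikolskii* and the 3122 CPM of *B. multiradiatus*. How much skin entered each muscle sample was not tested. Ictacalcin, a calcium-binding protein of fish skin, went the other way on the mixed identifier DN2354_c0_g1, with 39.3 CPM in *C. dybowski* and 7.33 CPM in *C. baicalensis*, and summed to 67.4 and 41.5 CPM over its title. Among peptidases and their inhibitors, cystatin-B (DN23_c0_g2) had 21.5 CPM in *C. dybowski* and 2.46 CPM in *C. baicalensis*.

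Across the 29 lists, 25 held identifiers at least 4-fold apart in both directions, where 26.5% of all identifiers of the normalized tables were that far apart. Only parvalbumins (3.75) and ferritin (-2.26) had a median of at least 1 in size. As a ratio of CPM, a title sum cannot be further apart than its most different identifier. Smaller differences by title therefore follow from the summing itself. Of 95 titles with several identifiers and a 4-fold difference in at least 1 of them, the sums of 37 remained at least 4-fold apart and those of another 37 were less than 2-fold apart. The sums of all 876 titles were at least 4-fold higher in *C. dybowski* for 95 titles (10.8%) and in *C. baicalensis* for 94 (10.7%).

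An exchange of identifiers, with at least 4-fold differences both ways under 1 title, was found for 18 titles. They were troponin C, fast troponin I, myosin binding protein Hb, LIM domain-binding protein 3b, parvalbumin 3, parvalbumin beta, nucleoside diphosphate kinase A 2, apolipoprotein Eb, L27a, elongation factor 1-beta, the lipid hydroperoxide glutathione peroxidase, ferritin heavy subunit, the interferon-inducible 27-like protein, reticulon-4, WAS/WASL-interacting protein family member 2, negative elongation factor E and, on 1 shared pair of identifiers, lupus La protein and METTL5. The sums of 9 of them differed by less than 2-fold and those of 3 by at least 4-fold. For L27a, a protein of the large ribosomal subunit, DN1160_c0_g3 had 621 CPM in *C. dybowski* and 2.37 CPM in *C. baicalensis*, DN677_c4_g1 63.7 and 545 CPM, and DN2_c4_g1 3.23 and 709 CPM, while the title summed to 688 CPM in *C. dybowski* and 1256 CPM in *C. baicalensis* (685 and 547 CPM without DN2_c4_g1, which has a second title). When only identifiers with 1 title were counted, 5 such titles remained: fast troponin I, apolipoprotein Eb, L27a, elongation factor 1-beta and ferritin heavy subunit. Whether such identifiers are separate genes, or alleles and fragments that the assembly kept apart, was not tested.

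**Figure D4:**
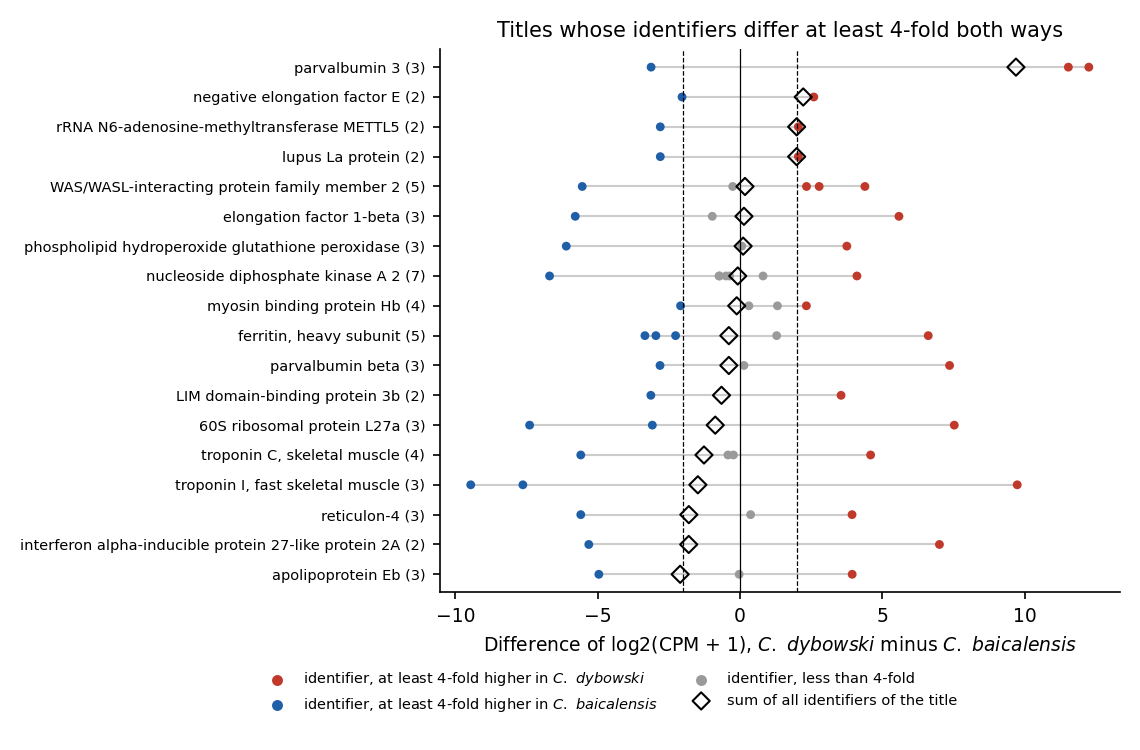
Difference of log2(CPM + 1), *C. dybowski* minus *C. baicalensis*, for the 18 titles whose identifiers differ at least 4-fold in both directions; points are identifiers, diamonds the sum over all identifiers of the title (number in parentheses), dashed lines 4-fold. Diamonds lie between the identifiers, from -2.10 in apolipoprotein Eb to 9.70 in parvalbumin 3.

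Set beside the benthic libraries, either golomyanka could be the one apart. Of the 98 identifiers at least 4-fold higher in *C. dybowski*, the mean log2 value of the 2 benthic libraries was nearer to *C. baicalensis* for 69 and nearer to *C. dybowski* for 29. Both benthic libraries were at least 4-fold below the *C. dybowski* level for 66, below 2 CPM for 24, and above the *C. dybowski* level for 23. Of the 112 higher in *C. baicalensis*, 62 were nearer to *C. dybowski* in the benthic libraries and 50 nearer to *C. baicalensis*. Both benthic libraries were at least 4-fold below the *C. baicalensis* level for 59, below 2 CPM for 16, and above the *C. baicalensis* level for 39. Both sets were picked for being high in 1 golomyanka, and the same counts were not made over all identifiers of the normalized tables. The identifiers DN832_c0_g1 (parvalbumin 3), DN46_c0_g3 (fast troponin I) and DN5989_c0_g2 (P0) were high in *C. dybowski* alone of the 4 libraries. This did not hold for their proteins. Over identifiers with 1 title, fast troponin I summed to 2673 CPM in *C. dybowski*, 2431 CPM in *B. nikolskii* and 2686 CPM in *B. multiradiatus*. P0 summed to 823, 1072 and 2.89 CPM in the same order, and parvalbumin 3 was abundant in both benthic species on DN1094_c0_g1, a mixed identifier. Tropomodulin-4 on DN3070_c1_g2, tropomyosin 4a and IST1 were high in *C. baicalensis* alone, whereas creatine kinase on DN5_c0_g1 and fast troponin I on DN640_c0_g3 were high in *C. baicalensis* and both benthic species.

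**Figure D5:**
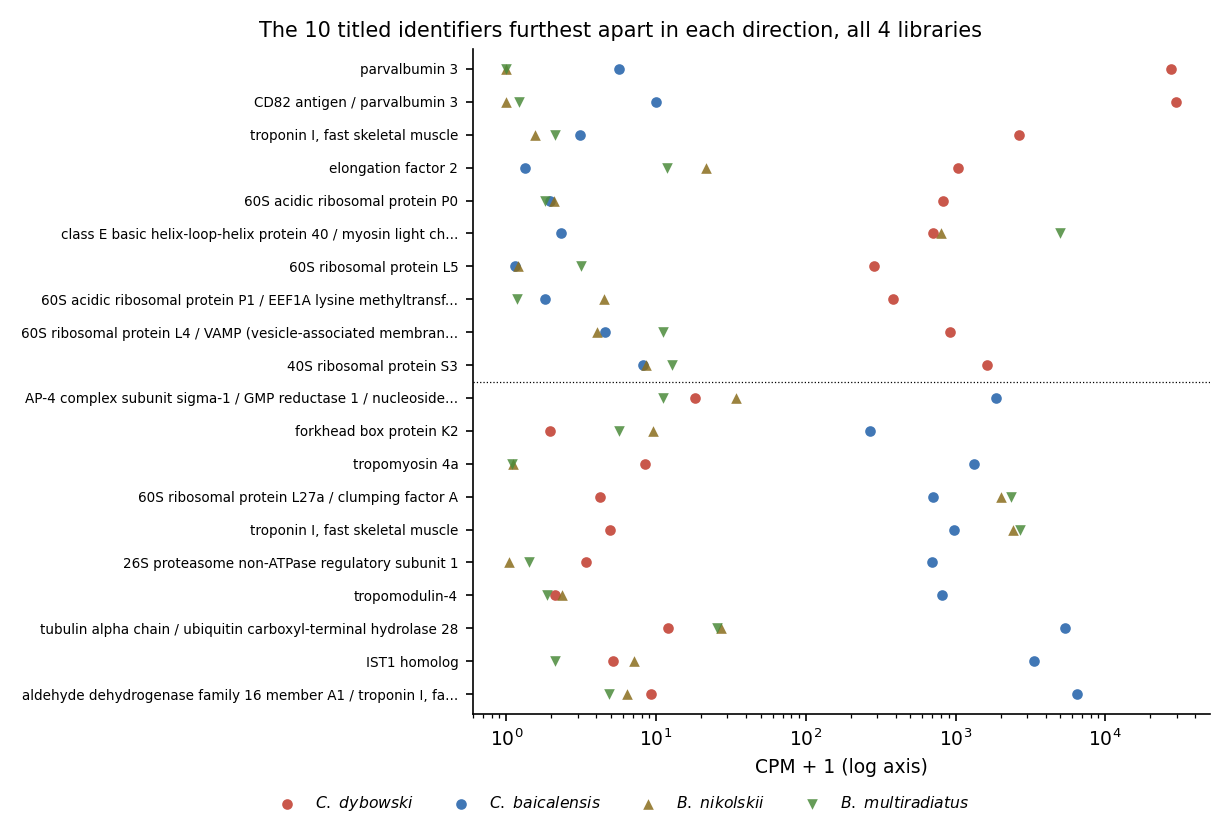
CPM + 1 (log axis) in all 4 libraries of the 10 titled identifiers furthest apart in each direction, those higher in *C. dybowski* above the dotted line and those higher in *C. baicalensis* below it; 1 point per library. In the upper block, the benthic libraries lie far below *C. dybowski* for all but myosin light chain 1, and fast troponin I (DN640_c0_g3) and L27a in the lower block have benthic levels above that of *C. baicalensis*.

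Some of the most abundant and most different identifiers had no title. On library-total CPM, DN9241_c7_g1 was the most abundant identifier of *C. dybowski*, with 138721 CPM against 89384 CPM in *C. baicalensis*, and DN28600_c0_g1 was that of *C. baicalensis*, with 92651 CPM in *C. dybowski* and 119079 CPM in *C. baicalensis*. Both lay within 2-fold. On the CPM of the normalized tables, DN383_c0_g4 had 23137 CPM in *C. dybowski* and 19.0 CPM in *C. baicalensis*, and DN192_c0_g2 had 9.10 and 2895 CPM. Of the 658 listed identifiers at least 4-fold apart, 167 carried a title, so the protein behind most of them is not named here.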

How the data were processed

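Polyadenylated RNA of 1 muscle pool per species was sequenced from non-directional libraries. The authors trimmed reads with Trimmomatic 0.36, assembled each species separately with Trinity, joined the assemblies and clustered them with CD-HIT at 95% identity, and quantified reads with Salmon. Transcripts of 2 species less alike than that limit keep separate identifiers, and 116 identifiers hold the same isoform name under more than 1 sequence counter. The effect of either on the differences was not tested. The unnormalized tables hold estimated counts that the authors deposited as whole numbers. The normalized tables hold CPM, which the authors computed with edgeR 4.0.3 for the identifiers they called between any species. CPM is not per length, so sums and levels of different proteins are shares of reads.

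Estimated counts were divided by the library total for CPM. For the normalized tables the deposited CPM were compared as log2(CPM + 1), and the counts behind their intervals were recovered from CPM and the adjusted library size. A difference was counted from 4-fold on, and a 0 was read as up to 3 counts. Nothing was tested between species. Proteins were grouped into 29 lists by title. The members and lists were chosen with earlier results of these data known. The set of named identifiers held 225, and not all of them are printed above. It took the 10 titled identifiers furthest apart in each direction with at least 10 CPM, and the 2 furthest apart per list and direction. It also took the 10 most abundant per library and up to 2 untitled ones per direction. The titles discussed by the study for these species, opposed titles and cell type markers completed it. Further identifiers, and the title sums, were picked with their values known. The title table was read in part. The scripts (Python 3.11.15, pandas 2.3.3, numpy 2.4.6, scipy 1.17.1, matplotlib 3.10.9, and R 4.3.3 with edgeR 4.0.16 and DESeq2 1.42.0 for size factors only) were tested on simulated data. Alternatives changed the scaling, pseudocount, filter, fold limit, titles and summing. Title sums without mixed identifiers were added after the data were seen.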

Additional observations from a re-analysis of the deposited data

How the results depend on the processing

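No paired analysis was possible because each species has 1 library. Of 9787 listed identifiers 658 were at least 4-fold apart, and 161 were so with 10 CPM added (82 higher in *C. dybowski*, 79 in *C. baicalensis*), 2258 from 2-fold on and 216 from 8-fold on. Scaling moved the split between the species rather than the number: besides TMM, DESeq2 size factors gave 300 higher in *C. dybowski* and 322 higher in *C. baicalensis*, and leaving out the 10 most abundant identifiers 298 and 324, whereas the adjusted library sizes gave 349 and 299 and clean read totals 369 and 288. The Pearson correlation of 0.860 compares with a Spearman value of 0.778, and was 0.764 from a mean of 5 CPM on. In the normalized tables, 210 identifiers were at least 4-fold apart, and 134 were with a pseudocount of 10, 93 with 1 title only, 387 from 2-fold on and 132 from 8-fold on. Lists with 4-fold identifiers both ways numbered 25, but 10 with 1 title only and 14 after summing by title, and lists with a median of at least 1 in size 2, but 9 with 1 title only. Opposed titles numbered 18, but 5 with 1 title only and 42 from 2-fold on.

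Of 661 alternative values for named identifiers 70 had the opposite sign, all of them sums over a title, 27 of these for identifiers at least 4-fold apart. For those 27 the sums were -1.48 for fast troponin I (DN46_c0_g3), -1.26 for troponin C (DN191_c0_g5), -0.61 for skeletal actin (DN68_c0_g2), -0.59 for myosin light polypeptide 3 (DN123_c0_g1 and DN123_c0_g2), 0.062 for fast myosin heavy chain (DN879_c2_g2), -0.11 for myosin binding protein Hb (DN328_c0_g2), -0.39 for IGFN1 (DN2193_c0_g1), -0.65 for LIM domain-binding protein 3b (DN10794_c0_g1), 9.70 for parvalbumin 3 (DN1094_c0_g1), -0.39 for parvalbumin beta (DN1094_c0_g4), -0.077 for nucleoside diphosphate kinase A 2 (DN123_c0_g2), -0.047 for adenylate kinase 1 (DN16366_c0_g2), -0.059 for glyceraldehyde-3-phosphate dehydrogenase (DN1290_c0_g2), 0.18 for WAS/WASL-interacting protein family member 2 (DN32_c0_g1) and -2.10 for apolipoprotein Eb (DN1401_c0_g1). The others were 0.14 for elongation factor 1-beta (DN741_c0_g2), 0.11 for the lipid hydroperoxide glutathione peroxidase (DN4084_c0_g1), -0.39 for ferritin (DN1718_c1_g1), -1.80 for the interferon-inducible 27-like protein (DN868_c0_g1), -1.80 for reticulon-4 (DN462_c0_g1), -0.16 for L18 (DN1376_c0_g1), 0.39 for L31 (DN916_c1_g1), -0.87 for L27a (DN1160_c0_g3), 1.99 for lupus La protein and for METTL5 (DN53_c0_g2) and 2.22 for negative elongation factor E (DN5332_c0_g1). Of 145 alternative list medians 124 stayed within 0.5, and 21 had the opposite sign, 9 of them with 1 title only and 7 after summing by title. These belonged to 15 lists whose medians were at most 0.50 in size, and their direction depends on the setting. In sums chosen after the data were seen, these titles turned. Over identifiers with 1 title, fast troponin I gave 1.45, L27a 0.32, the lipid hydroperoxide glutathione peroxidase -4.47 and embryonic alpha hemoglobin -0.42. Reticulon-4 gave 3.16 without DN267_c0_g1. Depth leaves 384 listed identifiers whose interval includes 4-fold, and intervals are widest for identifiers near 0 in 1 library.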
